A study of Mus musculus with 27 samples.

Results

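Levels of 10 heat shock and chaperone genes were followed across embryonic stem cells of 2 lines and 3 treatments: Hspa1a, Hspa1b, Hspa8, Hsph1, Dnajb1, Hspb1, Hsp90aa1, Hsp90ab1, Hspd1 and Hspe1. The genes were given by name, and each symbol matched 1 Ensembl ID of the GENCODE M21 annotation. These are 10 of the 53801 genes counted, and all 10 were among the 18363 genes that passed the filter on low counts and were tested.

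RNA was sequenced from TX1072 cells, mouse embryonic stem cells of a BL/6J x CAST-EiJ cross. Both lines carried SPEN fused to an auxin-inducible degron (SPEN-AID), by which auxin removes the SPEN protein, and each expressed a BglG fusion, BglG-GFP-SPOC (the SPOC line) or BglG-GFP (the GFP line). SPOC is a domain of SPEN, a protein needed for gene silencing by Xist RNA. Doxycycline (Dox) turns on Xist in TX1072 cells. In the groups called Dox+Auxin, cells had auxin for 12 h and then Dox and auxin for 24 h; those called Dox had Dox at 1 ug/mL for 24 h; the third treatment was none. The SPOC line had 5 libraries with Dox+Auxin, 5 with Dox and 5 untreated, and the GFP line had 4 of each, 27 in all. All cells grew with serum, LIF and the 2 inhibitors of 2i medium, and the degron and a BglG fusion were present in every group, untreated ones included. A group with auxin alone was not analysed here, so Dox+Auxin was set against Dox and against untreated cells. The labels do not say whether each line was 1 clone, and the fusion and any other difference between the lines cannot be told apart.

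Chaperones bind unfolded or partly folded proteins and let them fold. HSP70 proteins (Hspa1a, Hspa1b, Hspa8) hold clients in cycles of ATP binding and release, which J-domain proteins such as Dnajb1 start and nucleotide exchange factors such as Hsph1 end; HSP90 proteins (Hsp90aa1, Hsp90ab1) take over clients at a later step, and the small heat shock protein Hspb1 keeps unfolding proteins from aggregating. Inside mitochondria, Hspd1 (HSP60) forms a folding chamber that Hspe1 (HSP10) closes. On heat or other proteotoxic stress the transcription factor HSF1 forms trimers and binds heat shock elements, which are GAA units and their reverse complement TTC set 2 bases apart, in the promoters of many of these genes. Dividing cells, embryonic stem cells among them, hold high constitutive levels of HSP90 and of Hspa8.

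The promoters are shown because they carry the heat shock elements by which these genes are known, and because the near-identical pair Hspa1a and Hspa1b bears on how their reads can be assigned. The 250 bases before each RefSeq start (GRCm38.p6) were searched in the 7 genes with an entry in the RefSeq promoter table, which were Hspa1a, Hspa1b, Hspb1, Dnajb1, Hsph1, Hspd1 and Hspe1; Hspa8, Hsp90aa1 and Hsp90ab1 had none. Dnajb1, Hsph1 and Hspd1 had 2 starts each, which gives 10 windows, and the sequences shown are from the start nearest to that of the GENCODE gene. Capitals mark GAANNTTC or TTCNNGAA, a facing pair of units; each motif is its own reverse complement, so 1 search covers both strands, and the motifs can overlap. The first 3 sequences and that of Dnajb1 are the whole window, and those of Hspe1 and Hsph1 are the 30 bases around the match.
Hspa1a, chr17:34972157-34972406, minus strand: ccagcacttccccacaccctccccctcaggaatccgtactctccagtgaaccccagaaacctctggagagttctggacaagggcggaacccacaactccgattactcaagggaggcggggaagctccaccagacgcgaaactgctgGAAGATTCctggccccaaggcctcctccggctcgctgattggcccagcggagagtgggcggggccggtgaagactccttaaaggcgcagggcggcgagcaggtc
Hspa1b, chr17:34959239-34959488, minus strand: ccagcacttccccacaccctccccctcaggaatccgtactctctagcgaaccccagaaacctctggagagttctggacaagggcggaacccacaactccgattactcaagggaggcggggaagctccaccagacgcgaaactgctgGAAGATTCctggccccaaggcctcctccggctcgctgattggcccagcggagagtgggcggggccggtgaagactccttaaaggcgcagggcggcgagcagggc
Hspb1, chr5:135887669-135887918, plus strand: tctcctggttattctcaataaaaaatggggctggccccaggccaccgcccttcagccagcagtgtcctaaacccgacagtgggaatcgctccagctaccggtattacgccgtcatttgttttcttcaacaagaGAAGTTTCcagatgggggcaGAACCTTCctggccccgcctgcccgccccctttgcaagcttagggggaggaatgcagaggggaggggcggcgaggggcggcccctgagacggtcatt
Dnajb1, chr8:83607925-83608174, plus strand: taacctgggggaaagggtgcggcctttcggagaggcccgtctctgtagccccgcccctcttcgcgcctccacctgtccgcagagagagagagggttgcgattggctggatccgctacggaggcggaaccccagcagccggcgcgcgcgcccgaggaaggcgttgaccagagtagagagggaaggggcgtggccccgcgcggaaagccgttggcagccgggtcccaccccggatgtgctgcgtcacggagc
Hspe1, chr1:55088053-55088082, plus strand: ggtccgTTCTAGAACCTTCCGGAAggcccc
Hsph1, chr5:149636351-149636380, minus strand: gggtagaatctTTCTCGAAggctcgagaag

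A facing pair was found in 7 of the 10 windows, beside 12.8% of all 32851 RefSeq promoter windows of 250 bases, and in at least 1 window of 6 of the 7 genes. These are not 7 separate finds. The 2 Hsph1 windows overlap and share 1 match, and the Hspa1a and Hspa1b windows are near-identical. The matches of Hspe1 and Hspd1 are 1 stretch read on both strands. Counted from the start nearest to that of the GENCODE gene, it began at -104 in both Hspa1a and Hspa1b, at -117 and -97 in Hspb1 and at -33 in Hsph1. The Hsph1 match lies inside the annotated gene, whose 5′ end is at 149636376 on the minus strand. Hspe1 held 3 overlapping pairs, at -89, -84 and -79, which form a run of units on alternating strands; a run of 3 units (GAANNTTCNNGAA or TTCNNGAANNTTC) was found in 2 of the 10 windows, 1 of Hspe1 and 1 of Hspd1, and in 0.466% of all windows. Hspe1 and Hspd1 lie head to head on chromosome 1 (Hspe1 at 55088132 to 55091307 on the plus strand, Hspd1 at 55077835 to 55088243 on the minus strand, GRCm38), so that their 5′ ends overlap and this run lies inside the annotated 5′ end of Hspd1. Read on the other strand, the same stretch stands before the downstream of the 2 Hspd1 starts (55087932), with pairs at -144, -139 and -134, while the window of the start at 55088243 held none. No pair was found in either window of Dnajb1, but the window of its second start (83608298 to 83608547) lies inside the annotated gene, not before it. TATAAA was found in 0 of the 10 windows and in 7.59% of all windows. A match is a string of letters in these windows, and binding was not measured.

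Total counts per library ranged from 28936459 to 45489094. Xist served as a check of the Dox labels: it had 289.5 to 414.8 CPM in SPOC Dox+Auxin, 307.6 to 458.0 CPM in SPOC Dox and 1.035 to 1.694 CPM in 4 of 5 SPOC untreated libraries, and the library labelled SPOC untreated replicate 2 had 177.8 CPM, against its label. In the GFP line Xist had 382.5 to 630.0 CPM with Dox+Auxin, 746.9 to 918.1 CPM with Dox and 5.432 to 7.825 CPM untreated. Without SPOC untreated replicate 2 every comparison called as many of the 10 genes as with it, except SPOC against GFP with Dox, where 1 was called in place of 2. The auxin degron acts on the protein, so Spen mRNA does not measure the removal of SPEN. Spen mRNA was at 973.3 to 1242 CPM in SPOC Dox+Auxin, 328.6 to 368.7 CPM in SPOC Dox and 326.4 to 358.0 CPM in SPOC untreated libraries. In the GFP line it had 634.1 to 1164 CPM with Dox+Auxin, 178.0 to 214.5 CPM with Dox and 158.1 to 186.7 CPM untreated. Every Dox+Auxin library was thus above every other library. Reads from the SPOC domain of the fusion were not told apart from those of Spen, so the line difference in Spen is not read here. All 10 embryonic stem cell markers were expressed, with summed levels of 6009 to 7062 CPM, and of the 8 fibroblast feeder markers Col3a1, Lum, Dcn and Postn had at most 0.209 CPM in any library. The other 4 were expressed, with means over the 27 libraries of 15.2 CPM for Thy1, 11.1 CPM for Col1a1, 4.34 CPM for Col1a2 and 2.87 CPM for Pdgfrb. In bulk RNA, fewer cells of a type and less RNA per cell cannot be told apart.

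The constitutive chaperones were among the most abundant transcripts of these cells, and the heat-inducible HSP70 genes were near the floor. Per kilobase of exon and scaled for library depth, as the deposited table gives it, Hsp90ab1 had a median level of 51909 over the 27 libraries, the second highest of all genes tested. Hsp90aa1 followed at 22422, Hspd1 at 17279 and Hspa8 at 14450. Each library's Hsp90ab1 level was above every library's Hsp90aa1 level, and Hsp90aa1 likewise above Hspd1, while the ranges of Hspd1 and Hspa8 overlapped. Hspe1 (5952) and Hspb1 (5214) came next with overlapping ranges, then Hsph1 (2579) and Dnajb1 (873), apart from each other and from their neighbours. On this per-kilobase scale the inducible Hspa1b had a median of 24.8 and Hspa1a of 6.51, so that Hspa8 stood 584-fold above Hspa1b. The 10 genes together made up 1.05% to 1.19% of the counts of a library.

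All further levels are CPM, the count of a gene relative to the TMM-scaled size of its library, and all differences are log2 fold changes with their standard error. Groups differed little: the highest group mean was 1.07 times the lowest for Hsp90ab1 and 1.28 times for Hsph1, and the ratios of the other 6 genes outside the Hspa1 pair lay between. Dnajb1 and Hspb1 were highest in GFP Dox+Auxin, Hspa8 and Hsph1 in SPOC untreated, Hsp90aa1 in SPOC Dox, Hsp90ab1 in GFP Dox, and Hspd1 and Hspe1 in SPOC Dox+Auxin. Going down the order of group means, the ranges of neighbouring groups overlapped in Hsph1 and Hspe1 throughout. Dnajb1 had a gap between SPOC Dox+Auxin and GFP Dox, Hsp90aa1 between GFP Dox and GFP untreated, Hsp90ab1 between SPOC untreated and GFP Dox+Auxin, Hspb1 between GFP Dox+Auxin and SPOC Dox+Auxin, Hspa8 between SPOC untreated and SPOC Dox, and Hspd1, narrowly, between SPOC Dox and GFP Dox+Auxin.

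**Figure D1:**
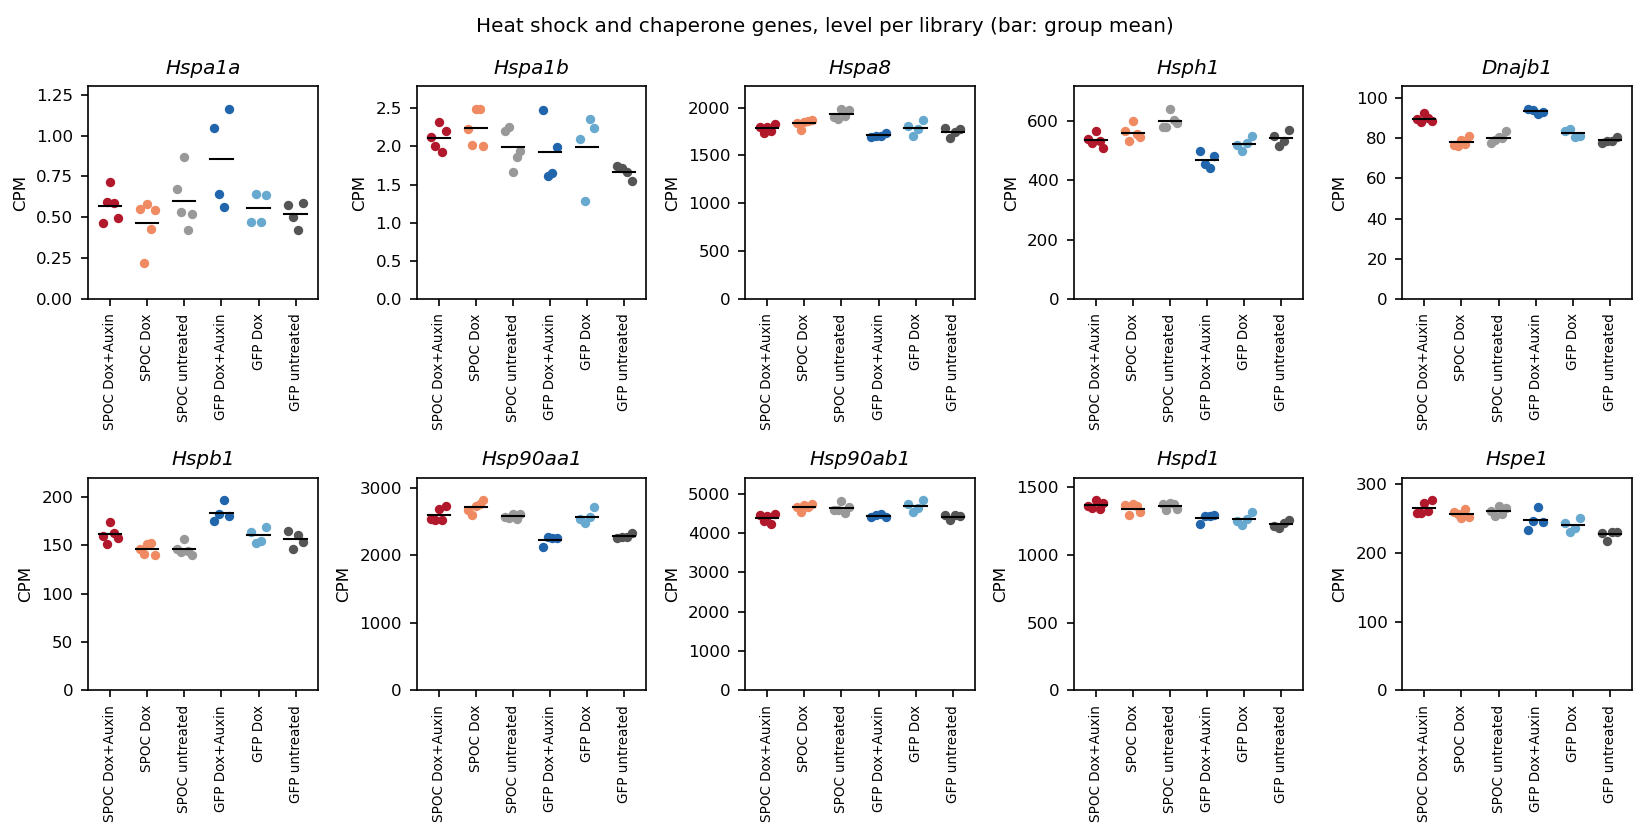
Level of each of the 10 genes in every library, in CPM on a linear axis that starts at 0, for SPOC Dox+Auxin, Dox and untreated and then GFP Dox+Auxin, Dox and untreated; points are libraries and bars are group means. Dnajb1 sits between 91.9 and 94.6 CPM in GFP Dox+Auxin and between 77.8 and 80.5 CPM in GFP untreated libraries, while Hspa1a reaches at most 1.16 CPM in any library.

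With Dox+Auxin the chaperones did not move as a block: the J-domain protein gene Dnajb1 and the small heat shock gene Hspb1 rose in both lines, and the HSP110 gene Hsph1 fell in both against untreated cells. In the SPOC line 5 of the 10 genes were called against untreated (2 higher and 3 lower, edgeR's quasi-likelihood test, Benjamini-Hochberg adjusted p under 0.05 over all genes). The background was 33.3% of all genes tested, 16.7% higher and 16.6% lower. GFP cells had 5 of 10 called (4 higher and 1 lower), beside 38.2% of all genes, 19.9% higher and 18.4% lower. Against Dox, 3 of 10 were called in SPOC cells (2 higher and 1 lower), beside 32.0% of all genes, 16.6% higher and 15.4% lower. GFP cells had 7 of 10 called against Dox (3 higher and 4 lower), beside 47.6% of all genes, 24.7% higher and 22.9% lower. The 10 genes had a median log2 fold change against untreated of 0.01 in SPOC cells and 0.09 in GFP cells, and all genes had -0.0096 in SPOC and -0.0027 in GFP cells.

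The level of Dnajb1, the J-domain partner that delivers clients to HSP70, was 89.4, 88.0, 92.5, 89.9 and 88.6 CPM in SPOC Dox+Auxin, 76.6, 76.2, 79.1, 77.0 and 80.9 CPM in SPOC Dox and 77.4, 79.1, 80.7, 80.3 and 83.5 CPM in SPOC untreated libraries. GFP cells had 94.6, 93.8, 91.9 and 93.1 CPM with Dox+Auxin, 83.4, 84.4, 80.5 and 81.2 CPM with Dox and 77.8, 78.7, 78.5 and 80.5 CPM untreated. Every Dox+Auxin library of either line was above every Dox and untreated library of both lines. Dnajb1 rose by 0.16 ± 0.03 (log2, SE; adjusted p = 1.7e-05) against untreated and by 0.20 ± 0.03 (5.7e-07) against Dox in the SPOC line. The GFP line gave 0.24 ± 0.03 (8.4e-08) against untreated and 0.18 ± 0.03 (6.1e-06) against Dox. All of these calls held in each alternative fit that was run.

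Hspb1, which holds unfolding proteins in solution without ATP, had 160.3, 152, 175, 163 and 158 CPM in SPOC Dox+Auxin, 147, 141, 152, 153 and 140.1 CPM in SPOC Dox and 146, 143, 156, 144 and 139.8 CPM in SPOC untreated libraries. It had 176, 183, 197 and 180.3 CPM in GFP Dox+Auxin, 164, 153, 155 and 169 CPM in GFP Dox and 165, 146, 161 and 153 CPM in GFP untreated libraries. The Dox+Auxin libraries stood apart from both other groups in the GFP line and overlapped them in the SPOC line. Hspb1 rose by 0.15 ± 0.04 against untreated (adjusted p = 0.0051) and by 0.14 ± 0.04 against Dox (0.0079) in SPOC cells, and by 0.23 ± 0.05 against untreated (0.00012) and 0.20 ± 0.05 against Dox (0.00055) in GFP cells.

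Hsph1, the nucleotide exchange factor of the HSP110 family, moved the other way. It had 540.1, 525, 567, 531 and 509 CPM in SPOC Dox+Auxin, 567, 531, 600.4, 557 and 544 CPM in SPOC Dox and 581, 579, 641, 602 and 593 CPM in SPOC untreated libraries. The GFP line had 499, 454, 442 and 482 CPM with Dox+Auxin, 519.8, 497, 526 and 549 CPM with Dox and 549, 517, 534 and 569 CPM untreated. In both lines all Dox+Auxin libraries were below all untreated ones, and they overlapped the Dox libraries. Hsph1 fell by 0.16 ± 0.04 on the log2 scale in SPOC cells (adjusted p = 0.00097) and by 0.21 ± 0.04 in GFP cells (0.0002) against untreated. Against Dox the GFP line differed by -0.16 ± 0.04 (0.0027), and the SPOC line by -0.07 ± 0.04 (0.18). The SPOC difference from Dox passed the threshold with the replicate number as a block in the fit (0.016).

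In each line both HSP90 genes had their highest group mean with Dox. In GFP cells all Dox libraries of either gene lay above the libraries of the other treatments. Hsp90aa1 is the form that heat induces in mammals. It had 2540.3, 2528, 2691, 2528 and 2723 CPM in SPOC Dox+Auxin, 2664, 2596, 2728, 2763 and 2813 CPM in SPOC Dox and 2573, 2547, 2615, 2540.2 and 2611 CPM in SPOC untreated libraries. GFP libraries had 2125, 2268, 2251.1 and 2254 CPM with Dox+Auxin, 2531, 2478, 2569 and 2711 CPM with Dox and 2260.2, 2272, 2274 and 2330.0 CPM untreated. Among GFP libraries those with Dox were above all others, and Dox+Auxin overlapped untreated. Hsp90aa1 differed by -0.21 ± 0.03 between GFP Dox+Auxin and Dox (adjusted p = 9.5e-07), and by -0.04 ± 0.03 against untreated (0.34). SPOC Dox+Auxin differed by -0.06 ± 0.03 from Dox (0.088) and by 0.01 ± 0.03 from untreated (0.74). The difference from Dox passed the threshold without SPOC Dox replicate 2 (0.038) or SPOC Dox+Auxin replicate 3 (0.047) or 5 (0.031). It also passed with the replicate number as a block (0.013).

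Hsp90ab1, the constitutive HSP90, had 4239.7 to 4498 CPM in SPOC Dox+Auxin, 4545 to 4745 CPM in SPOC Dox and 4507 to 4819.7 CPM in SPOC untreated libraries, with Dox+Auxin below both. It fell by 0.08 ± 0.02 on the log2 scale against untreated (adjusted p = 0.0054) and by 0.09 ± 0.02 against Dox (0.0017). In GFP cells it fell by 0.08 ± 0.02 against Dox (0.0086), a call lost without GFP Dox replicate 4 (0.053), and differed by 0.01 ± 0.02 from untreated (0.85).

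Hspa8, the constitutive cytosolic HSP70, had 1799.8, 1731, 1801, 1757 and 1831 CPM in SPOC Dox+Auxin and 1904, 1884, 1988, 1917 and 1970.4 CPM in SPOC untreated libraries, with no overlap. It fell by 0.12 ± 0.02 on the log2 scale against untreated (adjusted p = 0.00046). Against SPOC Dox it differed by -0.04 ± 0.02 (0.19), which was not called, and those libraries overlapped. GFP Dox+Auxin, with 1696 to 1735 CPM, overlapped GFP Dox (1707 to 1871 CPM) and GFP untreated (1679 to 1785 CPM). Its log2 difference against GFP Dox was -0.07 ± 0.03 (0.042), and this call was lost without any 1 of GFP Dox replicates 1, 3 and 4 and GFP Dox+Auxin replicates 1, 2 and 3 (adjusted p from 0.068 to 0.22) and with no filter on low counts (0.051).

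The inducible pair Hspa1a and Hspa1b gave too few reads for firm statements. Hspa1a had 8 to 41 reads and Hspa1b 48 to 97 reads per library, both are single-exon genes on chromosome 17 (Hspa1a at 34969190 to 34972156 and Hspa1b at 34956436 to 34959238, GRCm38), and their promoters differ at 3 of 250 bases. Of the 100-base windows of the Hspa1b transcript 49.9% occur unchanged in Hspa1a, so reads from either gene can be split between them or dropped. A predicted gene, Gm20481, overlaps Hspa1a on the opposite strand, and no source used here gives the strand setting of the counts. Hspa1a had 1.05, 0.646, 0.560 and 1.16 CPM in GFP Dox+Auxin, 0.474, 0.642, 0.472 and 0.639 CPM in GFP Dox and 0.573, 0.502, 0.423 and 0.587 CPM in GFP untreated libraries. Replicates 1 and 4 of Dox+Auxin were high, and the other 2 lay at the levels of the Dox libraries, so the groups overlapped. The fit gave 0.72 ± 0.24 against untreated (adjusted p = 0.018; 95% interval 0.23 to 1.22) and 0.62 ± 0.25 against Dox (0.038). The first call was lost without GFP Dox+Auxin replicate 1 (0.079) or 4 (0.10) or GFP untreated replicate 3 (0.060). The second was lost without GFP Dox+Auxin replicate 1 (0.14) or 4 (0.17), without GFP Dox replicate 1 (0.094) or 3 (0.099), in DESeq2 (0.063), with no filter on low counts (0.065) and with only the groups compared (0.064). With the reads of both genes summed, an alternative chosen after seeing the data, the difference was 0.35 (0.045) against untreated and 0.14 (0.43) against Dox. Hspa1b ranged from 1.28 to 2.49 CPM over all libraries and was called in none of the 12 comparisons, with an interval of -0.10 to 0.54 for GFP Dox+Auxin against untreated. Hspa1a in SPOC cells had 0.465 to 0.716 CPM with Dox+Auxin and 0.421 to 0.869 CPM untreated, a difference of -0.06 ± 0.24 (0.87).

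Of the mitochondrial pair, Hspd1 was called in none of the 6 treatment comparisons, with differences between -0.02 and 0.06. For GFP Dox+Auxin against untreated it passed without GFP Dox+Auxin replicate 1 (0.043) and with the replicate number as a block (0.024). Hspe1 had 234, 247, 268 and 245 CPM in GFP Dox+Auxin and 229, 217, 231 and 230.3 CPM in GFP untreated libraries, without overlap, and rose by 0.13 ± 0.04 (adjusted p = 0.0037). Against GFP Dox it differed by 0.05 ± 0.04 (0.29), which was not called, and those libraries overlapped. GFP Dox differed from GFP untreated by 0.08 ± 0.04 (0.091). The differences of Hspe1 in SPOC cells with Dox+Auxin were 0.02 ± 0.03 against untreated (0.59) and 0.05 ± 0.03 against Dox (0.24).

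**Figure D2:**
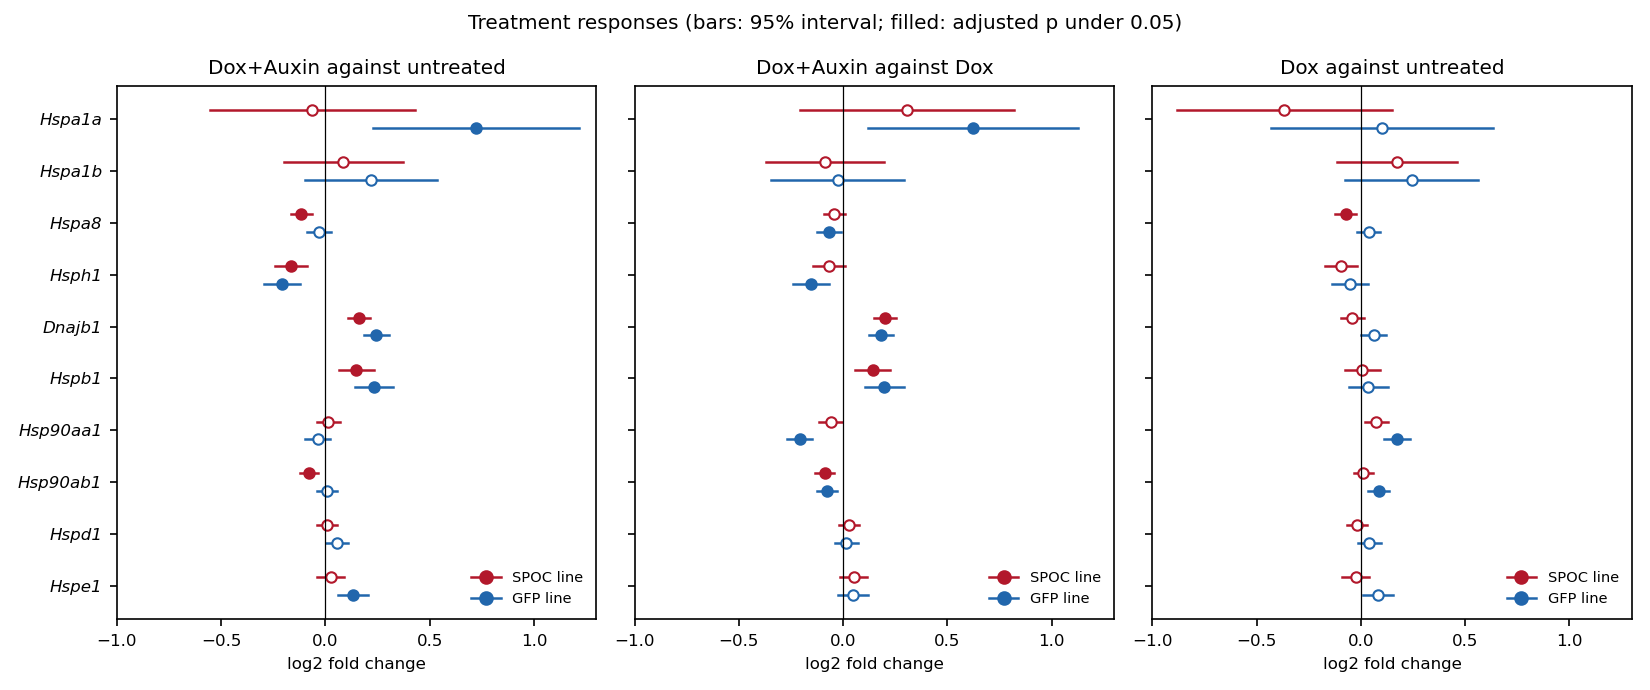
Log2 fold change of each gene for Dox+Auxin against untreated, Dox+Auxin against Dox and Dox against untreated, with the SPOC line above the GFP line; bars are 95% intervals and filled points have an adjusted p under 0.05. Dnajb1 and Hspb1 lie to the right of 0 in both lines in the first 2 panels, and Hspa1a has the widest intervals.

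Markers of other cell types and states also moved with Dox+Auxin. Neural markers summed to 202 to 268 CPM in SPOC Dox+Auxin, 138 to 176 CPM in SPOC Dox and 142 to 185 CPM in SPOC untreated libraries, and to 225 to 239 CPM in GFP Dox+Auxin, 152 to 175 CPM in GFP Dox and 136 to 149 CPM in GFP untreated libraries. Of the 4 neural markers tested of 5, 3 were higher and 1 lower in SPOC, and 2 were higher and 1 lower in GFP, with Dox+Auxin against untreated; Neurog2 was near 0, at most 0.0878 CPM in any group. Embryonic stem cell markers summed to 6229 to 6709 CPM in SPOC Dox+Auxin, 6675 to 7062 CPM in SPOC Dox and 6571 to 6921 CPM in SPOC untreated libraries, and to 6009 to 6185 CPM in GFP Dox+Auxin, 6729 to 6943 CPM in GFP Dox and 6417 to 6642 CPM in GFP untreated libraries. Against untreated, 2 of the 10 stem cell markers were higher and 3 lower in SPOC with Dox+Auxin, and 1 was higher and 5 were lower in GFP cells. Feeder markers summed to 24.8 to 32.1 CPM in SPOC Dox+Auxin, 33.0 to 38.9 CPM in SPOC Dox and 31.0 to 35.8 CPM in SPOC untreated libraries, and to 27.1 to 29.1 CPM in GFP Dox+Auxin, 37.7 to 41.1 CPM in GFP Dox and 37.5 to 38.9 CPM in GFP untreated libraries. Of the 4 feeder markers tested, with Dox+Auxin 2 were lower in SPOC against either untreated or Dox, 3 were lower in GFP against untreated and 4 against Dox, and 0 were higher. Their median log2 fold change in GFP cells was -0.58 against untreated and -0.67 against Dox, and in SPOC cells -0.39 against untreated and -0.42 against Dox. Mesoderm markers, 3 of 4 tested, summed to 25.0 to 34.1 CPM in SPOC Dox+Auxin, 23.6 to 29.6 CPM in SPOC Dox and 30.9 to 35.4 CPM in SPOC untreated libraries, and to 30.6 to 36.3 CPM in GFP Dox+Auxin, 22.4 to 24.5 CPM in GFP Dox and 26.2 to 31.4 CPM in GFP untreated libraries. In GFP cells 2 were higher with Dox+Auxin against Dox and 1 against untreated, and in SPOC cells 0 were called in either. The 6 primitive endoderm markers summed to at most 13.5 CPM in any library, and with Dox+Auxin 1 was lower in SPOC against untreated and 1 in GFP against Dox. Their part in the chaperone changes was not tested.

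With Dox without auxin, the share of the 10 genes called was near that of all genes in both lines. In GFP cells 2 of 10 were called against untreated, both higher, beside 20.9% of all genes, 10.1% higher and 10.8% lower. They were the HSP90 genes: Hsp90aa1 rose by 0.17 ± 0.03 (adjusted p = 7.3e-05), with the library values given above and no overlap, and Hsp90ab1, with 4541 to 4836 CPM in GFP Dox and 4338 to 4459.8 CPM in GFP untreated libraries, rose by 0.08 ± 0.02 (0.011). The Hsp90ab1 call was lost without GFP Dox replicate 4 (0.058) and with no filter on low counts (0.060). Hspa1b, at 0.24 ± 0.16 (0.30), passed only without GFP Dox replicate 2 (0.42, adjusted p = 0.038). Hspe1 passed with only the groups compared (0.09, adjusted p = 0.042) and with the replicate number as a block (0.08, adjusted p = 0.044). SPOC cells had 1 of 10 called, lower, beside 13.5% of all genes, 6.16% higher and 7.33% lower. It was Hspa8, with 1835, 1768, 1851, 1863 and 1872 CPM in SPOC Dox, all below the SPOC untreated libraries, and it differed by -0.07 ± 0.02 (0.046). That call was lost without any 1 of SPOC Dox replicates 1 to 4 and SPOC untreated replicates 1, 3, 4 and 5 (adjusted p from 0.062 to 0.14), with DESeq2 size factors or only the groups compared (0.055 in each) and with no filter (0.11). Hsp90aa1 in the SPOC line differed by 0.07 ± 0.03 and lay near the threshold (0.066). It passed in DESeq2 (0.028), with DESeq2 size factors (0.041) and with only the groups compared (0.027). It also passed with the replicate number as a block (0.0058) and without SPOC Dox replicate 2 (0.031). Hsph1 passed without SPOC Dox replicate 3 (-0.12, adjusted p = 0.035) and with the replicate number as a block (-0.10, adjusted p = 0.0017).

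Lines differed already before treatment. Of the 10 genes 5 were called in SPOC untreated against GFP untreated cells, all higher in SPOC, beside 11.6% of all genes, 5.79% higher and 5.77% lower. All 5 were abundant, at percentiles of 96.0 to 99.9 among the genes tested, and the share called among genes of like level was not computed. The median absolute log2 fold change of all genes called here was 0.22. The mitochondrial pair was among them: Hspe1, with 261, 253, 268, 257 and 266 CPM in SPOC untreated libraries, against 229, 217, 231 and 230.3 CPM in GFP untreated libraries, was higher by 0.20 ± 0.03 (adjusted p = 0.00035). Hspd1 had 1377, 1332, 1381, 1374 and 1342 CPM in SPOC untreated and 1216, 1197, 1237 and 1260.0 CPM in GFP untreated libraries, a difference of 0.15 ± 0.03 (0.00048). No SPOC untreated library of either gene was as low as a GFP untreated library. Hsp90aa1 was higher by 0.17 ± 0.03 (0.00033), Hspa8 by 0.15 ± 0.03 (0.00069) and Hsph1 by 0.14 ± 0.04 (0.018). The Hsph1 call was lost without SPOC untreated replicate 3 (0.055) or GFP untreated replicate 2 (0.092) or 3 (0.051). Hsp90ab1 differed by 0.07 ± 0.02 (0.054). It passed in DESeq2 (0.029), with the replicate number as a block (0.034) and without SPOC untreated replicate 4 (0.046). Hspb1 passed, lower in SPOC, with no filter (0.049) and without SPOC untreated replicate 3 (0.048), and Dnajb1 differed by 0.02 ± 0.03 (0.64). Without the SPOC untreated library that goes against its label, 5 genes were again called.

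With Dox+Auxin, 5 of 10 genes were called between the lines, 4 higher and 1 lower in SPOC, beside 24.6% of all genes, 11.2% higher and 13.5% lower. Hsp90aa1 was higher in SPOC by 0.23 ± 0.03 (adjusted p = 1.4e-06), Hsph1 by 0.19 ± 0.04 (0.00086), Hspd1 by 0.10 ± 0.03 (0.0042) and Hspe1 by 0.10 ± 0.03 (0.033). Hspb1 differed by -0.19 ± 0.04 (0.0018), lower in SPOC, and its SPOC and GFP Dox+Auxin libraries did not overlap. The Hspe1 call was lost without SPOC Dox+Auxin replicate 3 or 5 or GFP Dox+Auxin replicate 1, 2 or 4 (adjusted p from 0.072 to 0.18), with no filter (0.059) and with only the groups compared (0.097). Hspa1a, at -0.59 ± 0.23 (0.065), passed without SPOC Dox+Auxin replicate 3 (0.045) or GFP Dox+Auxin replicate 2 (0.044) or 3 (0.023). With Dox, 2 of 10 were called, beside 10.7% of all genes, 5.36% higher and 5.33% lower. Hspd1 was higher in SPOC by 0.09 ± 0.03 (0.023) and Hspb1 differed by -0.13 ± 0.04 (0.049). Both calls lay near the threshold. Hspd1 lost it without SPOC Dox replicate 1 or 4 or GFP Dox replicate 1 or 2 (0.052 to 0.10), with no filter (0.17) and with only the groups compared (0.055). Hspb1 lost it without SPOC Dox replicate 1, 2 or 5, GFP Dox replicate 1, 3 or 4, or SPOC untreated replicate 2 (0.050 to 0.16). Dnajb1 passed, lower in SPOC, in DESeq2 (0.029), with the replicate number as a block (0.030) and without SPOC Dox replicate 5 (0.043). With that block Hsph1 also passed, higher in SPOC (0.023). Higher in SPOC, Hspe1 passed in DESeq2 (0.047) and without GFP Dox replicate 4 (0.041), and Hsp90aa1 passed without GFP Dox replicate 4 (0.023) or SPOC Dox replicate 2 (0.045).

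**Figure D3:**
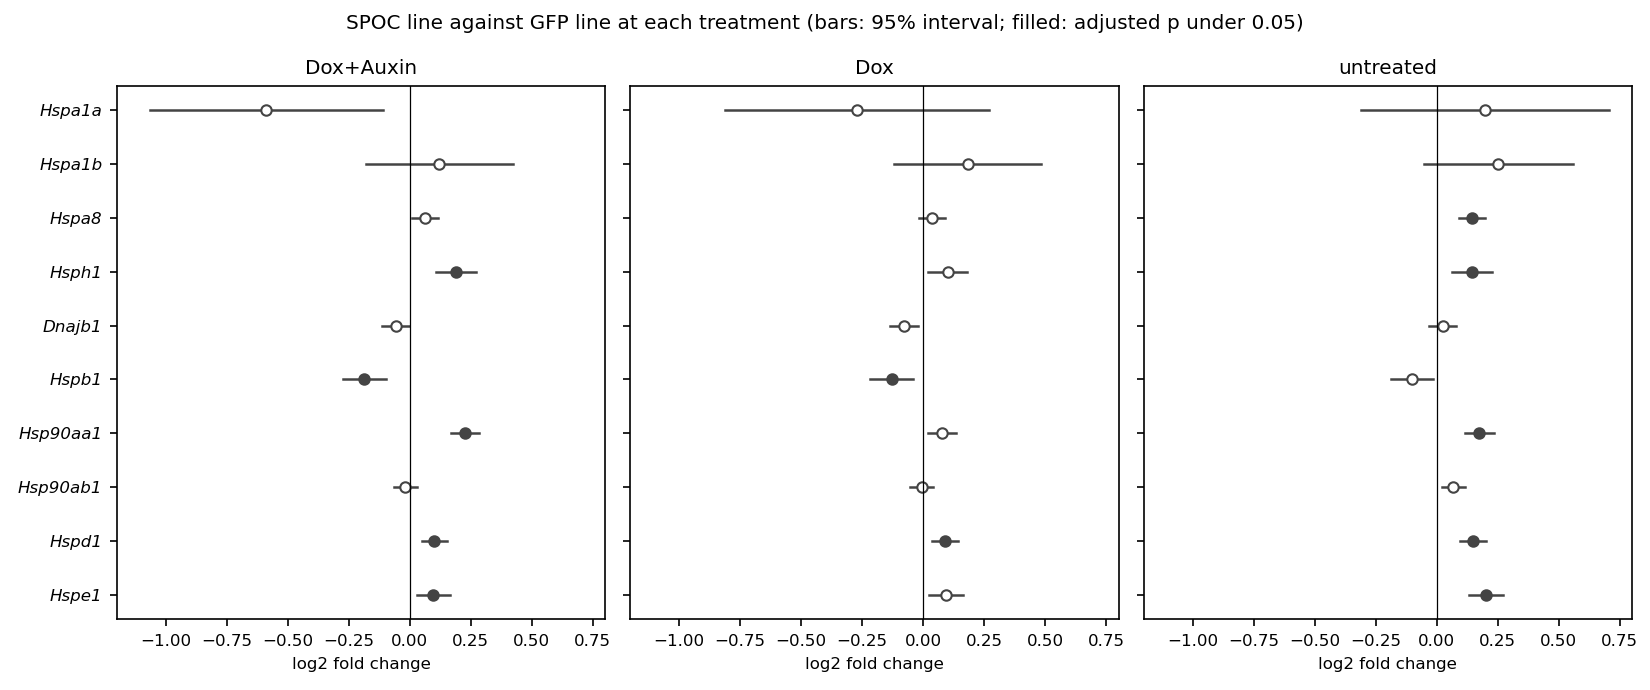
Log2 fold change of each gene in the SPOC line against the GFP line with Dox+Auxin, Dox and no treatment; bars are 95% intervals and filled points have an adjusted p under 0.05. Hspd1 is filled in all 3 panels, at 0.10, 0.09 and 0.15, and Hspb1 lies to the left of 0 in each.

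Whether the lines responded differently was tested as the SPOC response minus the GFP response. One gene passed: the change of Hsp90aa1 between Dox+Auxin and Dox was less negative in SPOC cells, by 0.15 ± 0.04 (adjusted p = 0.019), where 8.14% of all genes were called. Without GFP Dox replicate 4 the adjusted p was 0.062, and without GFP Dox+Auxin replicate 1 it was 0.063. For Dox+Auxin against untreated 0 of 10 were called (2.40% of all genes called), with 5 at an unadjusted edgeR p under 0.05. DESeq2 also called 0. Dox against untreated gave 0 of 10 called (0.240% of all genes called), also with 5 at an unadjusted edgeR p under 0.05 and 0 called in DESeq2. All 10 differences were negative, from -0.47 to -0.03, with a median of -0.09 beside 0.0024 for all genes. The 10 genes come from the same libraries, so this shared direction is a description. The differences for Dnajb1 were -0.08 ± 0.04 (0.27) against untreated and 0.02 ± 0.04 (0.82) against Dox, and those for Hspb1 were -0.08 ± 0.06 (0.50) against untreated and -0.06 ± 0.06 (0.64) against Dox.

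Within groups, most of the abundant chaperones went up and down together from library to library. The 28 pairs of the 8 genes other than Hspa1a and Hspa1b had a median Pearson r of 0.54 for deviations of log2 CPM from the group mean over 27 libraries, and 24 of the 28 were above 0. Highest was Hspa8 with Hsp90ab1 (0.86), and Hspd1 and Hspe1, which lie head to head, had 0.61. Dnajb1 stood outside: its r with the other 7 genes ran from -0.14 to 0.29. The pair Dnajb1 and Hspb1 had r = 0.72 over the 27 libraries as they are and -0.08 for deviations from the group means. All genes of a library share its scaling factor, so these values are a description and carry no test. Pairs of other genes were not computed, so the pattern is not shown to be particular to chaperones.

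**Figure D4:**
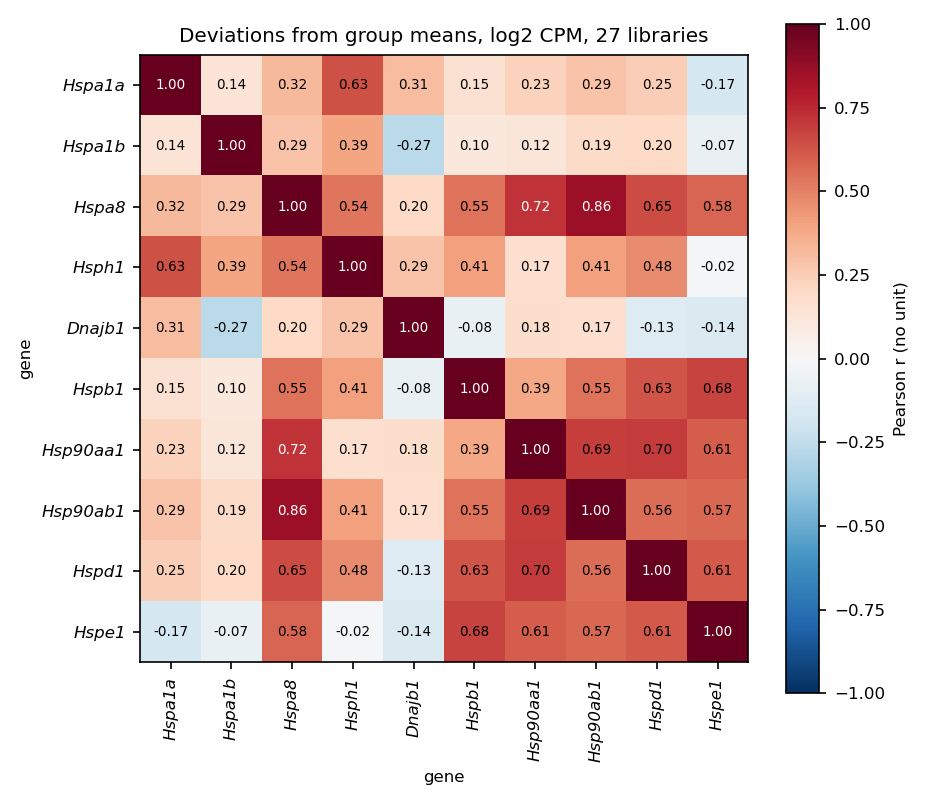
Pearson r between the 10 genes for deviations of log2 CPM from their group mean over 27 libraries, with red above 0 and blue below. The block of Hspa8, Hsp90aa1, Hsp90ab1, Hspd1 and Hspe1 holds values of 0.56 to 0.86, and the row of Dnajb1 is pale.

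Around the 10 genes, 5 lists of other chaperone genes were counted. The share of all genes called in either direction, beside which each list's share is to be read, was 33.3% in SPOC and 38.2% in GFP cells with Dox+Auxin against untreated. It was 32.0% in SPOC and 47.6% in GFP cells against Dox, and 13.5% in SPOC and 20.9% in GFP cells with Dox against untreated. Among the heat shock factors, Hsf1, the main stress-activated factor, had 56.5 ± 2.37 CPM in SPOC Dox+Auxin, 54.6 ± 2.02 CPM in SPOC Dox and 56.8 ± 2.31 CPM in SPOC untreated cells (SD, n = 5 each), and 58.8 ± 1.80 CPM in GFP Dox+Auxin, 49.8 ± 0.923 CPM in GFP Dox and 56.0 ± 2.56 CPM in GFP untreated cells (SD, n = 4 each). In GFP cells Hsf1 rose by 0.24 ± 0.04 with Dox+Auxin against Dox (adjusted p = 1.1e-05) and fell by 0.17 ± 0.04 with Dox against untreated (0.0022). Hsf2 rose with Dox+Auxin against untreated by 0.16 ± 0.04 in SPOC (0.0028) and 0.15 ± 0.04 in GFP cells (0.0086). Of the 5 factors (Hsf1, Hsf2, Hsf4, Hsf5 and the inhibitor Hsbp1), 1 was higher and 0 were lower in each line with Dox+Auxin against untreated, 1 of 5 called. Hsf5, low at a mean of 0.906 CPM over the 27 libraries, differed by -0.59 ± 0.20 with Dox against untreated in SPOC cells (0.04). The alternative fits were read for the 10 genes only, not for the genes of these lists.

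Of 23 other cytosolic chaperones and cochaperones 22 were tested. With Dox+Auxin against untreated, 2 were higher and 6 lower in SPOC, and 4 were higher and 5 lower in GFP cells; against Dox, 3 were higher and 4 lower in SPOC, and 5 were higher and 9 lower in GFP cells. The share called against untreated, 36.4% in SPOC and 40.9% in GFP cells, was near that of all genes, with median log2 fold changes of -0.02 in SPOC and 0.03 in GFP cells. Against Dox it was 31.8% in SPOC, also near that of all genes, and 63.6% in GFP cells. Bag3, a nucleotide exchange factor of HSP70 that HSF1 induces, and Hspb8, the small heat shock protein that BAG3 binds, went in opposite directions. Bag3 had 27.2 ± 1.54 CPM in SPOC Dox+Auxin, 39.3 ± 1.37 CPM in SPOC Dox and 36.8 ± 2.18 CPM in SPOC untreated cells, and 30.9 ± 2.03 CPM in GFP Dox+Auxin, 48.9 ± 1.84 CPM in GFP Dox and 45.0 ± 2.68 CPM in GFP untreated cells (SD, n as for Hsf1). It fell by 0.43 ± 0.05 in SPOC (adjusted p = 4.6e-08) and by 0.54 ± 0.05 in GFP cells (2.1e-09) against untreated. Hspb8 had 121 ± 2.92 CPM in SPOC Dox+Auxin, 96.5 ± 2.14 CPM in SPOC Dox and 100.5 ± 4.29 CPM in SPOC untreated cells, and 138 ± 7.93 CPM in GFP Dox+Auxin, 97.3 ± 2.08 CPM in GFP Dox and 103 ± 3.01 CPM in GFP untreated cells. It rose by 0.26 ± 0.03 in SPOC (2.8e-07) and by 0.42 ± 0.04 in GFP cells (2.7e-10). Against Dox, the GFP line also had higher Hspa4l (0.41 ± 0.10, adjusted p = 0.0012), Dnaja4 (0.51 ± 0.20, 0.032) and Dnajb4 (0.39 ± 0.13, 0.012). Dnaja4 and Dnajb4 were low, with means over the 27 libraries of 2.00 CPM and 2.63 CPM. With Dox against untreated, 2 of the list were higher in SPOC (9.09%) and 6 in GFP cells (27.3%), and 0 were lower in either; Hspa2 in GFP cells rose by 0.38 ± 0.07 (0.00027).

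Endoplasmic reticulum chaperones and genes of the unfolded protein response fell with Dox+Auxin. Of 18, 0 were higher and 12 lower in SPOC, and 0 were higher and 14 lower in GFP cells against untreated, with median log2 fold changes of -0.15 in SPOC and -0.18 in GFP cells, where 16.6% of all genes were lower in SPOC and 18.4% in GFP cells. The share of the list called was 66.7% in SPOC and 77.8% in GFP cells. Hspa5 (BiP), the HSP70 of the endoplasmic reticulum, fell by 0.14 ± 0.04 in SPOC (adjusted p = 0.0025) and by 0.18 ± 0.04 in GFP cells (0.00044). Ddit3, a transcription factor of the same response, fell by 1.02 ± 0.14 in SPOC (2.3e-06) and by 0.65 ± 0.14 in GFP cells (0.00077). Herpud1, a protein of endoplasmic reticulum degradation, fell by 0.41 ± 0.07 in SPOC (1.2e-05) and by 0.50 ± 0.07 in GFP cells (1.8e-06). Xbp1, another transcription factor of the response, fell by 0.29 ± 0.04 in SPOC (1.4e-07) and by 0.38 ± 0.04 in GFP cells (6e-09). Against Dox, 0 were higher and 7 lower in SPOC and 3 higher and 11 lower in GFP cells; with Dox against untreated, 0 were higher and 5 lower in SPOC and 2 higher and 3 lower in GFP cells. These are 38.9% of the list in SPOC and 77.8% in GFP cells against Dox, and 27.8% in each line with Dox against untreated. The falls given for Ddit3, Herpud1 and Xbp1 are against untreated. Against Dox, the lowest log2 fold change of any gene in the list was -0.71 in SPOC and -0.28 in GFP cells. With Dox against untreated it was -0.32 in SPOC and -0.41 in GFP cells, so part of the larger falls was not particular to Dox+Auxin.

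For the cytosolic chaperonin TRiC with its partner prefoldin, 14 genes, the counts for Dox+Auxin against untreated were 0 higher and 8 lower in SPOC (57.1% of the list called, median log2 fold change -0.08) and 2 higher and 2 lower in GFP cells (28.6%, under the share of all genes, median -0.03). Against Dox they were 1 higher and 3 lower in SPOC (28.6%) and 1 higher and 9 lower in GFP cells (71.4%), and with Dox against untreated 0 higher and 2 lower in SPOC (14.3%) and 6 higher and 1 lower in GFP cells (7 of 14). Vbp1, an X-linked prefoldin subunit, fell with Dox against untreated, by 0.32 ± 0.03 in SPOC (adjusted p = 2.9e-08) and by 0.39 ± 0.04 in GFP cells (1.4e-09). With Dox+Auxin against Dox, Vbp1 was higher by 0.20 in SPOC and by 0.45 in GFP cells, the highest value of the list in each line. Among 12 mitochondrial chaperones and proteases other than the HSP60 and HSP10 pair, 2 were higher and 2 lower in SPOC and 1 was higher and 2 lower in GFP cells with Dox+Auxin against untreated. The share called, 33.3% in SPOC and 25.0% in GFP cells, was at that of all genes in SPOC and under it in GFP cells. Against Dox, 0 were higher and 2 lower in SPOC (16.7%) and 2 higher and 4 lower in GFP cells (6 of 12), and with Dox against untreated 1 was higher and 0 lower in SPOC (8.33%) and 4 higher and 0 lower in GFP cells (33.3%). Hspa9, the mitochondrial HSP70, differed by -0.07 ± 0.02 in SPOC (0.0061) and -0.02 ± 0.02 in GFP cells (0.43) with Dox+Auxin against untreated. The protease gene Yme1l1 differed by -0.35 ± 0.03 in GFP Dox+Auxin against Dox (9.5e-10).

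**Figure D5:**
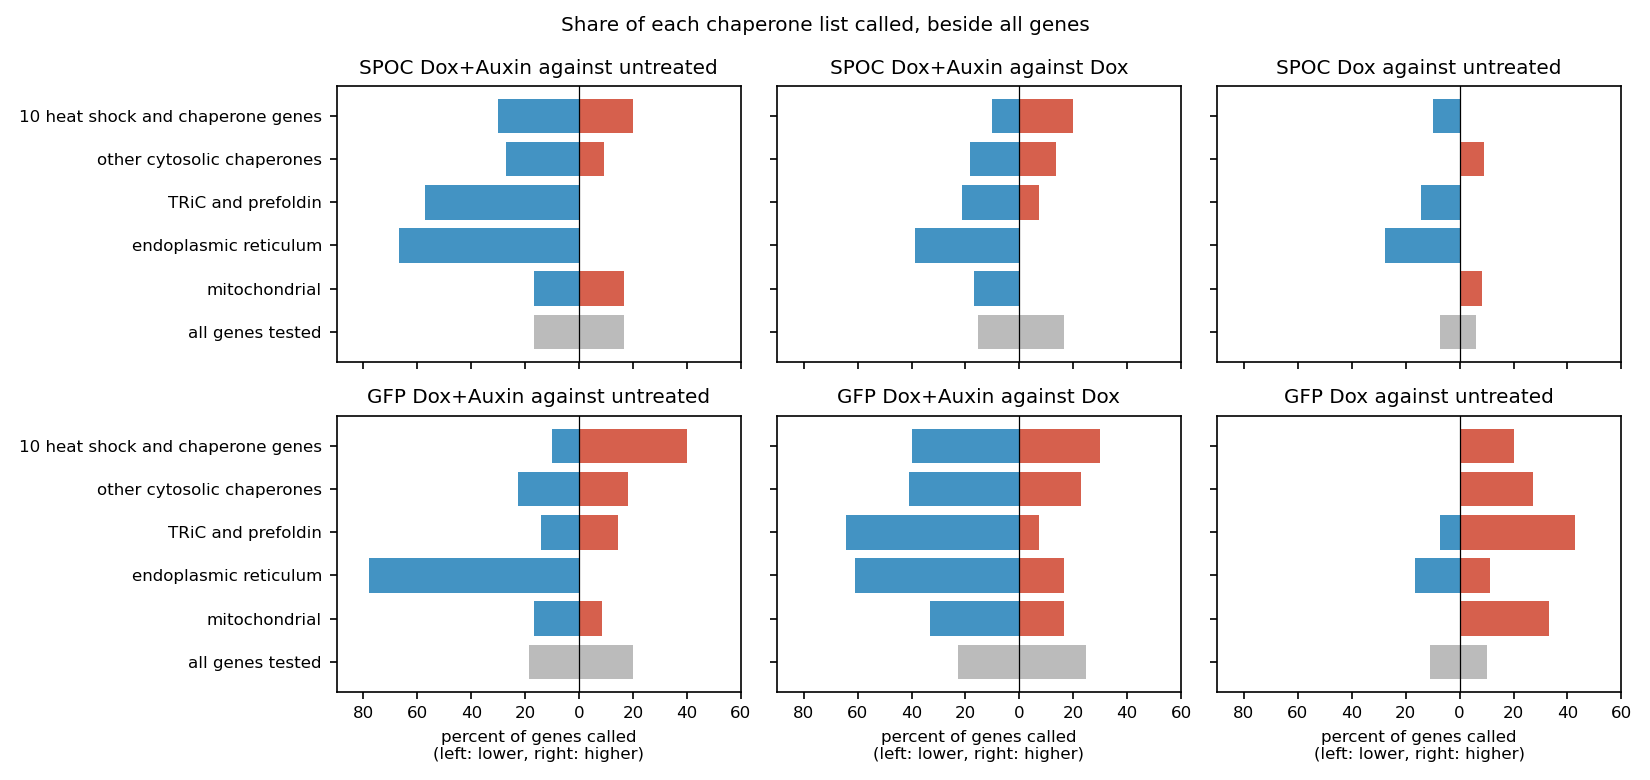
Percent of each gene list called at an adjusted p under 0.05, to the left of 0 for lower and to the right for higher, beside all genes tested, with the SPOC line in the top row and the GFP line below; columns are Dox+Auxin against untreated, Dox+Auxin against Dox and Dox against untreated. The endoplasmic reticulum list has 12 of 18 genes lower in SPOC and 14 of 18 lower in GFP cells with Dox+Auxin against untreated, and bars to both sides mark the 10 heat shock and chaperone genes.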

How the data were processed

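RNA of 27 libraries in 6 groups was analysed, grouped by line and treatment as the labels give them; the design text speaks of 4 biological replicates a group, and the SPOC line has 5. The submitters' processing notes name, without role or order, featureCounts, STAR 2.5.3a, Trim Galore 0.4.4, DESeq2 1.18.1, Picard 2.18.2 and mm10; no source used here gives the gene annotation or strand setting. Raw counts per gene, over both alleles, were taken from the authors' deposited table. Columns headed RPKM were checked and are not scaled to total reads: the deposited signal equals the count divided by a median-of-ratios size factor and by exon length in kilobases for 92.3% of 12260 genes (tolerance 0.001), so it served only to order genes per length. A further 54 columns of allele counts were not used. GENCODE M21 (GRCm38) named 53620 of 53801 IDs; where a symbol had several IDs, the one with the larger count was used.

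After filterByExpr and TMM scaling, the counts entered 1 robust quasi-likelihood fit in edgeR 4.0.16 (under R 4.3.3), with a term for each group and all libraries in it. A gene was called at a Benjamini-Hochberg adjusted p under 0.05 over all 18363 genes tested; standard errors were derived from the log2 fold change and its F value. The 12 comparisons were the 3 treatment pairs in each line, the lines at each treatment and the 3 differences between the lines' responses. Comparisons within a line share libraries. Shares of all genes called cover genes of every level, and shares among genes of like abundance were not computed. Correlations used log2 CPM with a prior count of 2. The steps were tested on simulated counts. Alternatives were DESeq2 1.42.0, its size factors, no filter, only the groups compared, a replicate block, each library left out, and the Hspa1a and Hspa1b counts summed. No pair of libraries in a group was alike within sampling noise. Named besides the 10 genes were, in other lists, genes past the threshold among the 3 largest rises and falls with an absolute log2 fold change of at least 0.3, and Hsf1, Hsf2, Hspa5 and Hspa9. The 10 genes and all lists were chosen with earlier results of these data known. P-values measure the spread between these samples.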

Additional observations from a re-analysis of the deposited data

Results flagged for a closer look

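Over 60 sets, 1 per gene and group, 3 had a library far from the others of its group; chance gives about 1 in 20 groups. Hsp90aa1 had 2125 CPM in GFP Dox+Auxin replicate 1, against 2251.1 to 2268 CPM in the other libraries of that group. Hspd1 had 1227.7 CPM in the same library, against 1288.5 to 1296.6 CPM. Hspe1 had 217.4 CPM in GFP untreated replicate 2, against 229 to 231.3 CPM. Without GFP Dox+Auxin replicate 1, Hsp90aa1 remained past the threshold for GFP Dox+Auxin against Dox, and Hspd1 passed it against untreated (0.07, edgeR adjusted p = 0.043). The change of Hsp90aa1 between Dox+Auxin and Dox differed between the lines by 0.15 (log2, SPOC minus GFP), as tested in edgeR with an adjusted p of 0.019.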

How the results depend on the processing

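Directions of called values were kept in all alternatives run. Counts of the 10 genes called that moved by over 1.5 times were these. For GFP Dox against untreated (2), no filter on low counts gave 1, and leaving out 1 library at a time gave 1 to 3. For SPOC Dox against untreated (1), DESeq2 gave 2, no filter 0, and leaving out 1 library 0 to 1. For SPOC against GFP with Dox (2), DESeq2 gave 4, no filter 1, only the groups compared 1, and leaving out 1 library 0 to 3. For the line difference in Dox+Auxin against Dox (1), leaving out 1 library gave 0 to 1. Other counts ranged, with 1 library left out, from 4 to 5 for GFP Dox+Auxin against untreated, 5 to 7 for GFP Dox+Auxin against Dox, 3 to 4 for SPOC Dox+Auxin against Dox, 4 to 6 for SPOC against GFP untreated, and 4 to 6 with Dox+Auxin; SPOC Dox+Auxin against untreated kept 5. The cause of these shifts was not tested; with a library left out, fewer samples enter the fit. Whether replicate numbers pair the samples was not settled. Of same-numbered pairs 10 of 15 in SPOC and 6 of 12 in GFP cells had a correlation of deviations over 0.1. Across lines it was 8 of 36. Median correlations of same-numbered pairs were 0.17 in SPOC cells, 0.097 in GFP cells and 0.04 across lines. Pairs with unlike numbers had medians of -0.05, -0.03 and -0.006 in that order. With the number as a replicate block, no call was lost. The counts were then 3 for SPOC Dox against untreated, 6 for SPOC Dox+Auxin against Dox and 4 for SPOC against GFP with Dox. The line difference in Dox against untreated had 1, Hspa8 (edgeR adjusted p = 0.023). That in Dox+Auxin against untreated had 2, Hsp90ab1 (0.023) and Hspa8 (0.032). Hspa8 also passed for SPOC Dox+Auxin against Dox (0.046) and for SPOC against GFP with Dox+Auxin (0.045). Depth limits Hspa1a and Hspa1b, at 8 to 41 and 48 to 97 reads a library.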

Other observations

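The genes whose levels ran most like those of each chaperone over the 27 libraries were sought among 12191 genes whose mean was 1 CPM or more, by Pearson r of log2 CPM; the values describe these libraries, which share treatments and scaling. Hspa8 was most like Hnrnpab (0.94), Npm1 (0.91) and the chaperonin subunit gene Cct8 (0.89), and Hsp90ab1 most like Rpl4 (0.94), Eef1a1 (0.94) and the ATP synthase subunit gene Atp5b (0.91). Hsp90aa1 was most like Sgk1 (0.95), Ankrd45 (0.95) and Abcd3 (0.92). Dnajb1 was most like Abcb10 (0.94), Sox21 (0.93) and Twnk (0.92), and Hspb1 most like Ms4a10 (0.92), Ptp4a3 (0.92) and Plk2 (0.91). Hsph1 was most like Stk33 (0.89), Slc18a1 (0.89) and Hsp90b1 (0.89), the HSP90 of the endoplasmic reticulum. Hspd1 was most like Pmm2 (0.87), Lcmt2 (0.85) and Tsr1 (0.85), and Hspe1 most like Rab5if (0.88), Rps27l (0.88) and Eloc (0.87). Values for Hspa1a and Hspa1b were at most 0.73, at 8 to 97 reads a library.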
